A study of Mus musculus with 17 samples.

Results

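The synaptonemal complex is the zipper-like protein structure that joins homologous chromosomes during meiotic prophase, and its chromosome axes are the protein cores along which chromatin loops are arranged. The RNA levels of 10 mouse genes that encode its parts or remodel its axes were followed here: the axis and lateral element genes Sycp2, Sycp3, Hormad1 and Hormad2, the transverse filament gene Sycp1, the central element genes Syce1, Syce2, Syce3 and Tex12, and the axis-remodelling gene Trip13. They were chosen by name, with earlier results of these data known, and are 10 of the 23980 genes listed in each of the 2 deposited expression tables, and all 10 passed the filter on low counts at both stages.

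PolyA(+) RNA was sequenced from 17 libraries of the C57BL6/J strain. Leptotene/zygotene (L/Z) spermatocytes, purified by fluorescence-activated cell sorting 3 to 4 weeks after birth, gave 2 WT, 2 Pld6 KO and 2 Dnmt3l KO libraries, and whole testes at postnatal day 0 (P0) gave 4 libraries of Pld6 KO, 3 of DKO, and 2 each of WT and Dnmt3l KO. DKO mice lack both genes. Pld6 encodes a mitochondrial protein needed to make piRNAs, and Dnmt3l encodes a partner of the de novo DNA methyltransferases, so the comparisons asked how the germ cell transcriptome differs when either silencing pathway of retrotransposons is lost. The mutations are germline knockouts carried by every cell of the animal. The labels call the libraries biological replicates and do not say whether animals were pooled.

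As background, SYCP2 and SYCP3 form the core of the axis, HORMAD1 and HORMAD2 bind axes that have not yet synapsed, and TRIP13 is the ATPase that removes HORMADs once synapsis occurs. SYCP1 then spans the gap between paired axes, with its ends held together in the central element by SYCE1, SYCE2, SYCE3 and TEX12. Most of these genes are known to be switched on as male germ cells enter meiosis, and assembly takes place from leptotene through zygotene, which is why staining for SYCP3 is a common way to stage spermatocytes and was used by the study to check its sorted cells.

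Library depth was 5194238 to 14578341 assigned fragments at L/Z and 9900346 to 23498968 at P0. The targeted genes followed the labels. Pld6 had 0 fragments in both L/Z Pld6 KO libraries against 344 and 352 in WT, and at most 2 in any P0 Pld6 KO or DKO library against 57 and 40 in WT. Dnmt3l had 0 fragments in both L/Z Dnmt3l KO libraries, where WT had only 19 and 11, and at most 3 in any P0 Dnmt3l KO or DKO library against 53 and 72 in WT. In 2 L/Z libraries, WT replicate 1 and Pld6 KO replicate 1, the 45S pre-ribosomal RNA gene Rn45s took 8.27% and 8.06% of fragments, against 0.13% to 0.3% in the other 4. Values that follow are given as CPM, the usual depth-scaled fragment count after TMM normalisation, or as the authors' FPKM, which also divides by transcript length.

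Sequences upstream of the genes are shown here because several of the 10 genes moved together in L/Z spermatocytes and because Dnmt3l acts on DNA methylation, which falls on CpG dinucleotides. RefSeq (GRCm38.p6) gave 13 promoter windows for the 10 genes, with 2 windows each for Hormad1, Syce2 and Syce3, and the 250 bases before each start site were searched. The following are 4 of the windows that hold the letters CACGTG, written 5′ to 3′ on the strand of the gene. Capitals mark CACGTG, the E-box bound by MAX-family proteins, and TCCCGC on either strand, which E2F-family proteins bind.
Sycp3 (chr10:88459337-88459586, plus strand): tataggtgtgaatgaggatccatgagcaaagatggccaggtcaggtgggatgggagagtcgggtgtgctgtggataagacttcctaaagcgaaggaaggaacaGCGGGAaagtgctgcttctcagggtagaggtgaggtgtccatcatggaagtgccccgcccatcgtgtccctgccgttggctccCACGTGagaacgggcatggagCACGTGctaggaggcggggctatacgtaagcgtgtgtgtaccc
Hormad1 (chr3:95559427-95559676, plus strand): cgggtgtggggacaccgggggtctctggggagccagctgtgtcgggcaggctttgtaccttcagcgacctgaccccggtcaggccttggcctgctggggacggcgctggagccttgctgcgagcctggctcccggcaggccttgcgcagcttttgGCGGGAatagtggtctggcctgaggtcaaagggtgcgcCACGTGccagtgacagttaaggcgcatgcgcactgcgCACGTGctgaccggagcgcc
Sycp1 (chr3:102936101-102936350, minus strand): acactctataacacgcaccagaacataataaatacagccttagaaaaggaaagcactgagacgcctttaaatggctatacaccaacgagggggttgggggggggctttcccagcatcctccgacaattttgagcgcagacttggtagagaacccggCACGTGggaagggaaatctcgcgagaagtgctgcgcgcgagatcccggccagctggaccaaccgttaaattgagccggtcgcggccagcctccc
Tex12 (chr9:50561269-50561518, minus strand): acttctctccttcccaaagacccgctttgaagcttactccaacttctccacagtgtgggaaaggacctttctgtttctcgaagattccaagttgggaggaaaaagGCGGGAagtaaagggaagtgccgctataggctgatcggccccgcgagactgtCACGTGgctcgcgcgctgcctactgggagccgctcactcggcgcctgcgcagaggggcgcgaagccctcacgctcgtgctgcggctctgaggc

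The letters CACGTG stood in the windows of 5 of the 10 genes, these 4 and Syce2, and in 6 of their 13 windows. Of all 32851 windows of that length, 6.02% held them. The 2 Hormad1 windows nearly coincide and hold the same sites, which are thus counted in both. For the Tex12 window and the Syce2 window with CACGTG, bases past the start site were not found in a reference transcript of the gene. Sycp3 and Hormad1 each held 2 copies, and 0.429% of all windows held 2 or more. TCCCGC, read on both strands, stood in the windows of Hormad1, Syce2, Tex12 and Sycp3, against 16.9% of all windows. Sycp2 and Hormad2, whose rise in Dnmt3l KO L/Z spermatocytes passed the test given below, held neither CACGTG nor TCCCGC. The rise of Sycp3 and Tex12 did not pass that test. Another motif, CNCCTCAG, associated with the meiotic-entry factor STRA8, was found on either strand for Hormad2 and Syce2, against 6.42% of all windows, and in Syce2 it overlapped a TCCCGC match. The number of CpG dinucleotides in the 250 bases was 7 for Sycp2, 10 for Hormad2, 12 for Sycp3, 13 for Syce1 and 17 for Sycp1. It was 19 in each Hormad1 window, 20 for Tex12 and 27 for Trip13. The 2 Syce2 windows held 11 and 24, and the 2 Syce3 windows 5 and 11. The 13 windows thus spanned 5 to 27, against a median of 6 over all windows. These matches describe letters in the windows, and no binding or methylation was measured in these libraries. The study measured methylation separately, in spermatogonia. It reports that few of the genes raised in Dnmt3l KO spermatocytes had significantly lower promoter methylation there. Promoter methylation of the 10 genes was not examined here.

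In L/Z WT spermatocytes all 10 genes were expressed. Ordered per length, as mean FPKM of 2 libraries, the axis gene Sycp3 led at 451, followed by Syce2 at 286, Sycp1 at 214, Hormad1 at 192, Syce3 at 170, Tex12 at 146, Syce1 at 124 and Sycp2 at 121. Among these 8, the range over the 2 libraries of each gene overlapped that of the next in order, so neighbours did not differ beyond their spread. Trip13 at 50.8 FPKM and Hormad2 at 30.8 FPKM lay below them, each apart from its neighbours in the order. Hormad2, the partner of HORMAD1 on unsynapsed axes, was thus listed lowest per length, at 21.4 and 40.2 FPKM against 120 and 264 FPKM for Hormad1.

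In P0 WT testes, where the germ cells are prospermatogonia that have not entered meiosis and are surrounded by somatic cells, most of the genes were at low levels. Syce2 was highest at 41.2 and 44 FPKM, followed by Trip13 at 14.6 and 13.1 FPKM and Tex12 at 11.1 and 8.71 FPKM, each apart from the next in order. Hormad1, Sycp3, Syce1 and Syce3 had means of 7.3, 6.19, 4.62 and 4.17 FPKM with overlapping ranges between neighbours, Sycp1 and Sycp2 had 3.09 and 2.52, and Hormad2 was lowest at 0.563 and 0.641 FPKM. The L/Z and P0 tables were scaled separately and come from a sorted cell type and a whole organ, so the 2 sets of levels are not compared by a test. Hormad2 rested on 8 and 9 fragments and Syce3 on 15 and 13 fragments in the P0 WT libraries, which limits what P0 can show for them.

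The only calls among the 10 genes in any comparison by edgeR on all libraries were between Dnmt3l KO and WT L/Z spermatocytes. Here 4 of the 10 genes rose, Hormad1, Hormad2, Sycp1 and Sycp2, and none fell, by edgeR's quasi-likelihood test with a false discovery rate (FDR, the Benjamini-Hochberg adjusted p over all genes) under 0.05 and a fold over 2. Of all 14662 genes tested, 802 were called (5.47%), 3.89% higher and 1.58% lower. The median log2 fold change was 1.11 over the 10 genes and -0.04 over all genes. At an unadjusted p under 0.05, 7 of the 10 were higher, where 15% of all genes were. DESeq2 called 5 of the 10, adding Sycp3, and 6.77% of all genes.

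Among the axis genes, Hormad1 was measured at 176 and 385 CPM in WT (replicates 1 and 2, in this order throughout), at 990 and 779 CPM in Dnmt3l KO and at 232 and 447 CPM in Pld6 KO. Its partner Hormad2 stood at 24.6 and 46.1 CPM in WT, at 112 and 85.2 CPM in Dnmt3l KO and at 43 and 59.4 CPM in Pld6 KO. In both genes the Dnmt3l KO libraries lay above all 4 others, and no Dnmt3l KO library overlapped a WT or Pld6 KO library. Hormad1 rose by a log2 fold change of 1.66 ± 0.389 (SE, edgeR adjusted p = 0.0317) and Hormad2 by 1.48 ± 0.311 (edgeR adjusted p = 0.0234).

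Sycp2, the axis core gene, stood at 498 and 840 CPM in WT, at 1930 and 1450 CPM in Dnmt3l KO and at 592 and 907 CPM in Pld6 KO. It rose in Dnmt3l KO by 1.34 ± 0.324 on the log2 scale (edgeR adjusted p = 0.0342). Sycp3, whose protein pairs with SYCP2, stood at 254 and 580 CPM in WT, at 1020 and 1040 CPM in Dnmt3l KO and at 285 and 564 CPM in Pld6 KO. Its Dnmt3l KO libraries did not overlap the others either, and its log2 difference of 1.30 ± 0.394 was close to that of Sycp2, but it missed the threshold (edgeR adjusted p = 0.0692). The higher WT library of Sycp3 was over 2 times the lower, a wider ratio than for Sycp2.

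Sycp1, the transverse filament gene, stood at 557 and 834 CPM in WT, at 1760 and 1670 CPM in Dnmt3l KO and at 656 and 1130 CPM in Pld6 KO. It rose in Dnmt3l KO by 1.30 ± 0.314 on the log2 scale (edgeR adjusted p = 0.0339). The libraries of Dnmt3l KO lay close together and above all others.

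The central element genes had smaller values. Tex12 was at 41.7 and 80.7 CPM in WT and 93.6 and 137 CPM in Dnmt3l KO, a log2 difference of 0.92 (95% confidence interval 0.21 to 1.63, edgeR adjusted p = 0.103). Syce1 was at 122 and 192 CPM in WT and 222 and 237 CPM in Dnmt3l KO, a difference of 0.55 (0.02 to 1.07, edgeR adjusted p = 0.171). For both genes the Dnmt3l KO libraries lay above WT without overlap, yet neither passed the test. Syce2, which had 163 and 255 CPM in WT and 205 and 310 CPM in Dnmt3l KO, overlapped between groups and differed by 0.30 (-0.30 to 0.91). Syce3, with 29 and 55.1 CPM in WT and 51.6 and 53.7 CPM in Dnmt3l KO, also overlapped and differed by 0.32 (-0.33 to 0.97). The intervals of Syce2 and Syce3 do not reach a 2-fold change.

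Trip13, the gene for the HORMAD-removing ATPase, was the exception in direction. It stood at 96.2 and 114 CPM in WT, at 79.8 and 109 CPM in Dnmt3l KO and at 87.2 and 116 CPM in Pld6 KO. The groups overlapped, and the Dnmt3l KO difference was -0.15 on the log2 scale (-0.67 to 0.37, edgeR adjusted p = 0.711). In all, 7 of the 10 genes had Dnmt3l KO libraries entirely above WT, where 28.1% of all tested genes did, and 0 had them entirely below, where 27.5% did. Summed over the 10 genes, the level was 1960 and 3380 CPM in WT and 6460 and 5870 CPM in Dnmt3l KO, and in Pld6 KO it was 2240 and 3640 CPM.

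**Figure D1:**
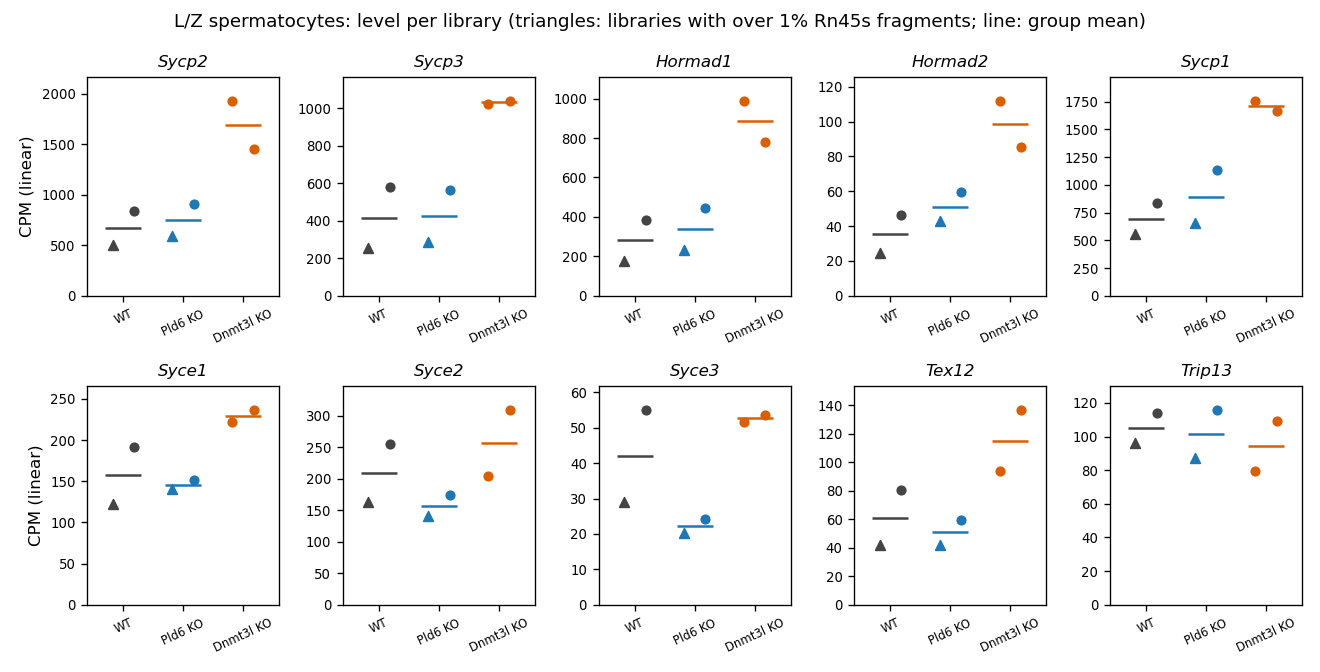
CPM (linear axes from 0) of the 10 genes in each L/Z library, by genotype; points are libraries, triangles the 2 libraries in which Rn45s took over 1% of fragments, and lines group means. Both Dnmt3l KO libraries lie above all WT and Pld6 KO libraries in 7 panels, while Syce2, Syce3 and Trip13 overlap with WT.

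The 4 calls depended on which libraries entered the fit. Without WT replicate 1, none of the 10 genes was called and 0.982% of all genes were, with Hormad1 at 1.20, Hormad2 at 1.09, Sycp1 at 1.04 and Sycp2 at 1.01 on the log2 scale. Without WT replicate 2, 6 were called, adding Sycp3 and Tex12, and so were 7.46% of all genes. Without Dnmt3l KO replicate 1 none was called, and 1 gene in all passed (0.00655% of those tested), while the log2 fold changes of the same 4 genes were 1.10 to 1.46. Without Dnmt3l KO replicate 2 none was called either, where 3.77% of all genes were, with log2 fold changes of 1.34 to 1.82 for these genes. With a factor for the Rn45s-rich libraries, Hormad1, Hormad2 and Sycp2 remained and the median of the 10 genes was 0.75.

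Markers of the cell types that a sorted fraction could hold also differed between the groups. A list of 10 L/Z spermatocyte markers, such as Dmc1 and Meiob, summed to 1420 and 2200 CPM in WT. The sums were 3830 and 3820 CPM in Dnmt3l KO and 1950 and 2320 CPM in Pld6 KO. By the same call rule, 5 of the 10 rose in Dnmt3l KO, where 3.89% of all genes did. Markers of Sertoli cells, the somatic cells that nurse germ cells, summed to 582 and 377 CPM in WT and 364 and 101 CPM in Dnmt3l KO, with a median log2 fold change of -1.17 over 8 genes and none called. Spermatogonial markers had a median of -0.86 over 8 genes, none called, and summed to 1860 and 1820 CPM in WT against 905 and 1570 CPM in Dnmt3l KO. The share of the difference in the 10 genes that goes with these markers was not tested, and in bulk libraries more cells of a type and more RNA per cell cannot be told apart. Markers of pachytene and later germ cells summed to 133 and 208 CPM in WT and 114 and 113 CPM in Dnmt3l KO. Of the 9 tested, 2 fell, where 1.58% of all genes did. Leydig cell markers were low in the sorted cells. The 6 listed genes summed to 18.7 and 13.9 CPM in WT, 10.5 and 7.57 CPM in Pld6 KO and 6.6 and 6.66 CPM in Dnmt3l KO. Among them, Hsd3b1 and Insl3 were at 4.17 CPM or less in every library and at or below 0.644 CPM in the mutants. Most of each sum came from the other markers of the list.

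GC content went with the size of the differences as well. The longest transcripts of Sycp1, Sycp2, Sycp3, Tex12 and Hormad1 hold 34.3% to 36.4% GC, and those of Hormad2, Trip13, Syce2, Syce1 and Syce3 hold 43.9% to 52.9%, against a median of 49.9% over the tested genes. The 5 AT-rich genes had a median log2 fold change of 1.3 in Dnmt3l KO and the other 5 of 0.32. Across all tested genes, each library's deviation from the mean correlated with GC content at a Spearman's rho of 0.346 and 0.338 in WT and at -0.26 and -0.434 in Dnmt3l KO, with Pld6 KO between them at 0.192 and -0.221.

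A per-library offset that levels GC and length trends, chosen after seeing earlier results of these data, took the number of called genes among the 10 from 4 to 0, and the share of all genes called to 1.66%. Under it Sycp1 had a log2 fold change of 0.62, Sycp2 0.65, Sycp3 0.71, Tex12 0.32 and Hormad1 1.11, and the median of the 10 genes was 0.64. Hormad2, at 43.9% GC, went from 1.48 to 1.24 (edgeR adjusted p = 0.0512), and Syce3 went from 0.32 to 0.74. Such an offset also takes out any true difference that follows GC content, so the part of base composition in the measured rise cannot be told apart from it here.

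**Figure D2:**
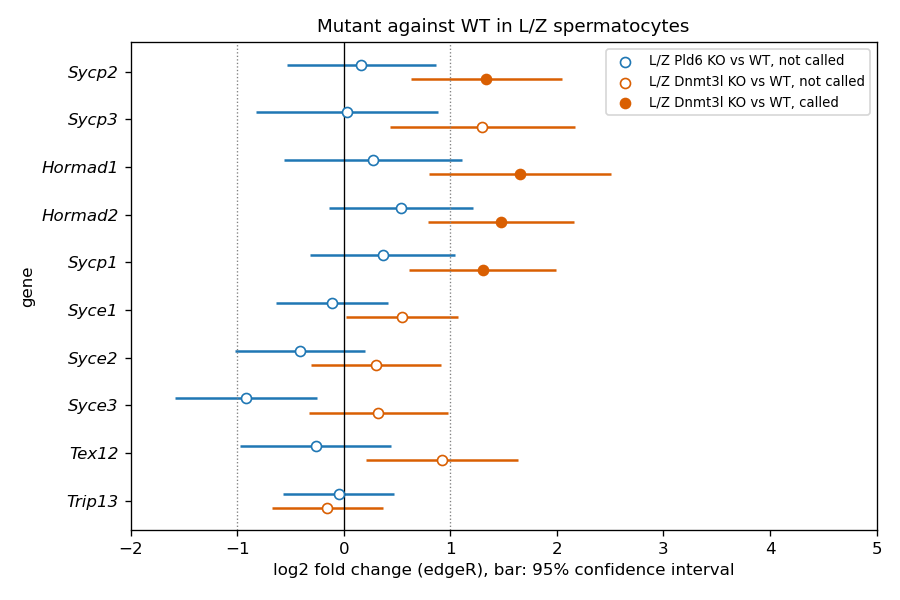
Log2 fold change of the 10 genes against WT in L/Z spermatocytes (edgeR, x axis), with 95% confidence intervals as bars, for Pld6 KO (blue) and Dnmt3l KO (orange); filled points passed the test and dotted lines mark a 2-fold change. Hormad1, Hormad2, Sycp1 and Sycp2 are filled for Dnmt3l KO, and no point is filled for Pld6 KO.

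**Figure D3:**
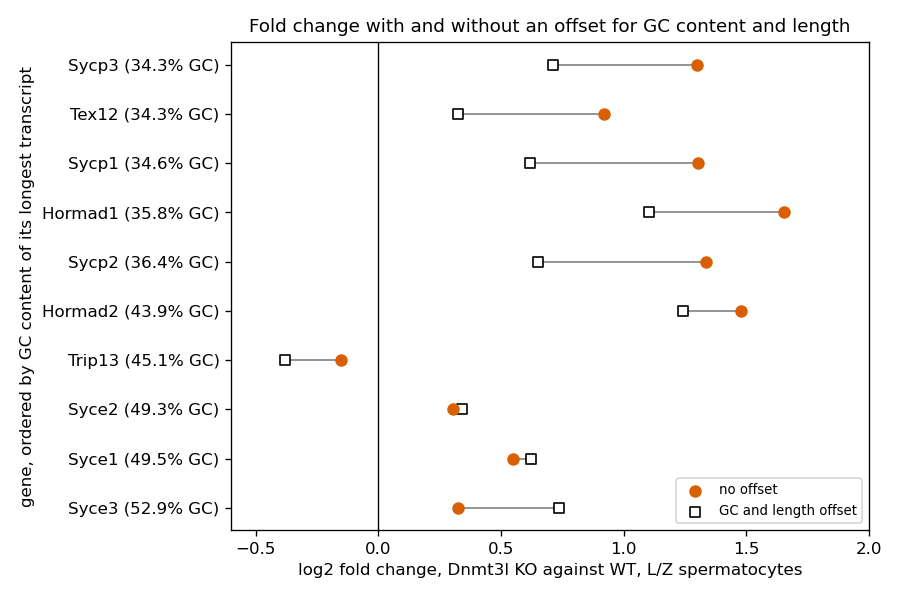
Log2 fold change of the 10 genes in Dnmt3l KO against WT L/Z spermatocytes (x axis), genes ordered from top to bottom by GC content of the longest transcript; circles are the fit without and squares the fit with an offset for GC content and length. The 5 genes under 40% GC move left under the offset, Hormad1 from 1.66 to 1.11, as do Hormad2 and Trip13 above 40% GC, while Syce1, Syce2 and Syce3 move right.

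Other genes of meiotic prophase were counted from fixed lists. Of 8 tested genes in a mixed list of complex proteins, interactors and regulators of the meiotic programme, 3 rose in Dnmt3l KO L/Z spermatocytes. Over all genes, 3.89% rose and 1.58% fell by the same rule. Gm1564 (Meioc) rose by 1.71 ± 0.285 on the log2 scale and Ythdc2 by 1.51 ± 0.254, and their products are RNA regulators that bind each other and are not parts of the complex. Only 4930447C04Rik (Six6os1), which rose by 1.65 ± 0.296, encodes a protein of the complex, in its central element. Of 4 meiotic cohesin genes, the ring-forming subunits of the axis, Rad21l rose by 1.38 and Smc1b by 1.09. Of 5 genes that tether telomeres to the nuclear envelope, 4933406J08Rik (Terb2) rose by 1.72 and Ccdc79 (Terb1) by 1.39. The median of each of these lists was positive, at 0.91, 0.93 and 1.03.

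Of 23 tested genes of double-strand break formation and recombination, 6 rose and none fell, with a median of 0.74. Again, 3.89% of all genes rose and 1.58% fell. Meiob, for a DNA-binding protein at recombination sites, rose by 2.17 ± 0.451, Prdm9, which sets hotspot positions, by 1.88 ± 0.304, Spata22, the partner of MEIOB, by 1.66 ± 0.353 and Dmc1, the meiotic recombinase, by 1.35 ± 0.298. Of 3 meiotic entry genes, Rara, a retinoic acid receptor, fell by 1.11 ± 0.247 and no other was called. All 10 of the L/Z marker genes are also in the cohesin or recombination list, so those counts are not independent of the marker count. None of the tested genes of these lists was called in Pld6 KO at either stage or in P0 Dnmt3l KO and DKO testes against WT by edgeR. At P0 some were higher in Dnmt3l KO at an unadjusted p under 0.05, where 6.24% of all genes were. These were 3 of 8 genes of the mixed list, 2 of 4 cohesin, 4 of 23 recombination, 2 of 5 telomere and 1 of 3 meiotic entry genes. Another meiotic entry gene, 1 of the 3, was lower at that level, where 6.69% of all genes were. Of the 14 calls in these lists, 3 remained under the GC and length offset, where 1.66% of all genes were called. With the Rn45s factor 11 remained, where 4.52% of all genes were called. Most were lost without WT replicate 1 or without either Dnmt3l KO library, fits that leave 1 library in a group.

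Between Pld6 KO and WT L/Z spermatocytes none of the 10 genes was called by edgeR, where 33 of 14662 genes were (0.225%), and DESeq2 and limma called none. The median log2 fold change was -0.01 over the 10 genes and 0.00 over all genes, with 5 of the 10 above and 5 below zero. Hormad2 had the highest value, 0.54 (95% confidence interval -0.14 to 1.22), and the intervals of Sycp1, Hormad1 and Hormad2 reach beyond a 2-fold rise, so these libraries could neither detect nor exclude a rise of that size.

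The other central element genes had values below zero. Tex12 stood at 41.9 and 59.8 CPM in Pld6 KO, within its WT range, a log2 difference of -0.26 (-0.97 to 0.45). Syce1, at 140 and 152 CPM, also lay within its WT range and differed by -0.11 (-0.63 to 0.42). Syce2, at 141 and 174 CPM, overlapped WT and differed by -0.41 (-1.02 to 0.20).

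Syce3, which joins SYCP1 to the rest of the central element, had the lowest value and the only unadjusted p under 0.05 (0.011). It stood at 20.2 and 24.2 CPM in Pld6 KO against 29 and 55.1 CPM in WT, without overlap, where 21.3% of all genes lay entirely below WT and 3.55% were lower at that p. The log2 difference was -0.92 ± 0.301 and missed the threshold (edgeR adjusted p = 0.393). It was -0.38 without WT replicate 2 and -0.36 with the GC and length offset. In all 10 genes the Rn45s-rich library was the lower of its pair in both WT and Pld6 KO, as the plot of CPM by library shows. Comparing only the libraries poor in Rn45s, Sycp1 had 1130 CPM in Pld6 KO against 834 CPM in WT, Sycp3 564 against 580 CPM and Syce3 24.2 against 55.1 CPM.

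The 2 mutants were also compared with each other at L/Z, which uses no WT library but shares each mutant group with the comparisons above. Between Dnmt3l KO and Pld6 KO none of the 10 genes was called, and 7 genes were in all (0.0477%). All but Trip13 had an unadjusted p under 0.05 and were higher in Dnmt3l KO, where 9.04% of all genes were higher at that level, and their Dnmt3l KO libraries lay entirely above Pld6 KO, as did those of 26.9% of all genes. The largest log2 difference was 1.38 ± 0.386 for Hormad1 (edgeR adjusted p = 0.153), and the smallest p was that of Syce3, at 1.24 ± 0.304 (edgeR adjusted p = 0.126). DESeq2 called 5 of the 10, Hormad1, Syce3, Sycp2, Sycp3 and Tex12, and 2.44% of all genes. Syce3 thus had a larger value between the mutants than either had against WT, with Pld6 KO libraries at 20.2 and 24.2 CPM and those of Dnmt3l KO at 51.6 and 53.7 CPM, on either side of or within the WT values of 29 and 55.1 CPM.

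At P0, 1 library stood apart from the other 10 in these genes. Dnmt3l KO replicate 1 had the highest level of all 11 libraries in each of the 10 genes, and the mean of their standardised log2 CPM was 1.92 there, against -0.68 to 0.38 elsewhere. Sycp3 was at 34.7 CPM in that library and at 4.02 to 9.22 CPM in all others, and Syce3 at 6.05 CPM against 0.604 to 2.4 CPM. The same library was high in genes of later germ cells. Ldhc, the germ cell lactate dehydrogenase, stood at 65.7 CPM there against at most 2.08 CPM elsewhere, and Meig1 at 32.1 CPM against at most 1.4 CPM. The 15 markers of pachytene and later germ cells summed to 184 CPM against 50.5 to 67.6 CPM, with Prm1 and Tnp1, genes of haploid sperm cells, at 0.175 and 0.438 CPM. Markers of newborn germ cells summed to 528 CPM, the highest of the 11 libraries, against 129 to 476 CPM. Much of that lead lay in Tex101 of that list, at 64.2 CPM there and 6.85 to 17.6 CPM elsewhere. Ddx4 and Dazl of the same list were at 92.8 and 171 CPM there, against at most 90.7 and 159 CPM elsewhere. The part of these markers in the levels of the 10 genes was not tested.

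None of the 10 genes was called between Dnmt3l KO and WT testes at P0, and edgeR called 0 genes in all (0%). All 10 had a positive log2 fold change, with a median of 1.24 against 0.03 over all genes, and 5 had an unadjusted p under 0.05, where 6.24% of all genes were higher at that level. DESeq2 called 2 of them, Hormad1 and Sycp1, and 0.447% of all genes. Sycp1 was at 11 and 9.57 CPM in WT and 52.6 and 16.7 CPM in Dnmt3l KO, a log2 difference of 1.76 ± 0.425 (edgeR adjusted p = 0.256). Hormad1 was at 11.9 and 9.91 CPM in WT and 41.2 and 23.4 CPM in Dnmt3l KO, a difference of 1.57 ± 0.415 (edgeR adjusted p = 0.257). In these 2 genes, and in Sycp2 and Tex12, both Dnmt3l KO libraries lay above both WT libraries, as did those of 25.3% of all genes.

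Of the 5 genes without an unadjusted p under 0.05, Syce2 and Trip13, the most abundant at P0, differed least. Syce2 had 30.8 and 33.2 CPM in WT and 44.7 and 21.8 CPM in Dnmt3l KO, on both sides of WT, a log2 difference of 0.06 (95% confidence interval -0.60 to 0.72). Trip13 had 31.4 and 27.6 CPM in WT and 33.6 and 28.7 CPM in Dnmt3l KO, an overlap with a difference of 0.08 (-0.46 to 0.62). Tex12, at 5.18 and 3.86 CPM in WT and 7.72 and 6.42 CPM in Dnmt3l KO, did not overlap and differed by 0.64 (-0.30 to 1.58). Both Syce1, at 7.9 and 4.28 CPM against 19 and 3.64 CPM, and Hormad2, at 0.68 and 0.756 CPM against 2.63 and 0.607 CPM, had 1 mutant library above and 1 below the WT values.

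Most of these values moved when the library that stood apart was left out. Without it, log2 differences were 0.70 for Sycp1, 0.87 for Sycp2, 0.15 for Sycp3, 1.10 for Hormad1 and -0.07 for Syce3. Without the other Dnmt3l KO library, edgeR called Sycp1 at 2.33 and Sycp3 at 2.51, and 0.341% of all genes. Sycp3 shows the contrast most plainly, at 7.22 and 4.79 CPM in WT and 34.7 and 6.68 CPM in Dnmt3l KO, the second of which lies within the WT range. Each Dnmt3l KO library's deviation from the mean correlated with GC content at a Spearman's rho of -0.385 and -0.388, against 0.166 and -0.004 in WT. The 2 Dnmt3l KO libraries were alike in this, while the mean standardised log2 CPM of the 10 genes was 1.92 and -0.2 in them. The part of GC content in these values was not tested. With the GC and length offset the median of the 10 genes was 0.91, with Sycp1 at 1.35 and Hormad1 at 0.98, and none was called.

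**Figure D4:**
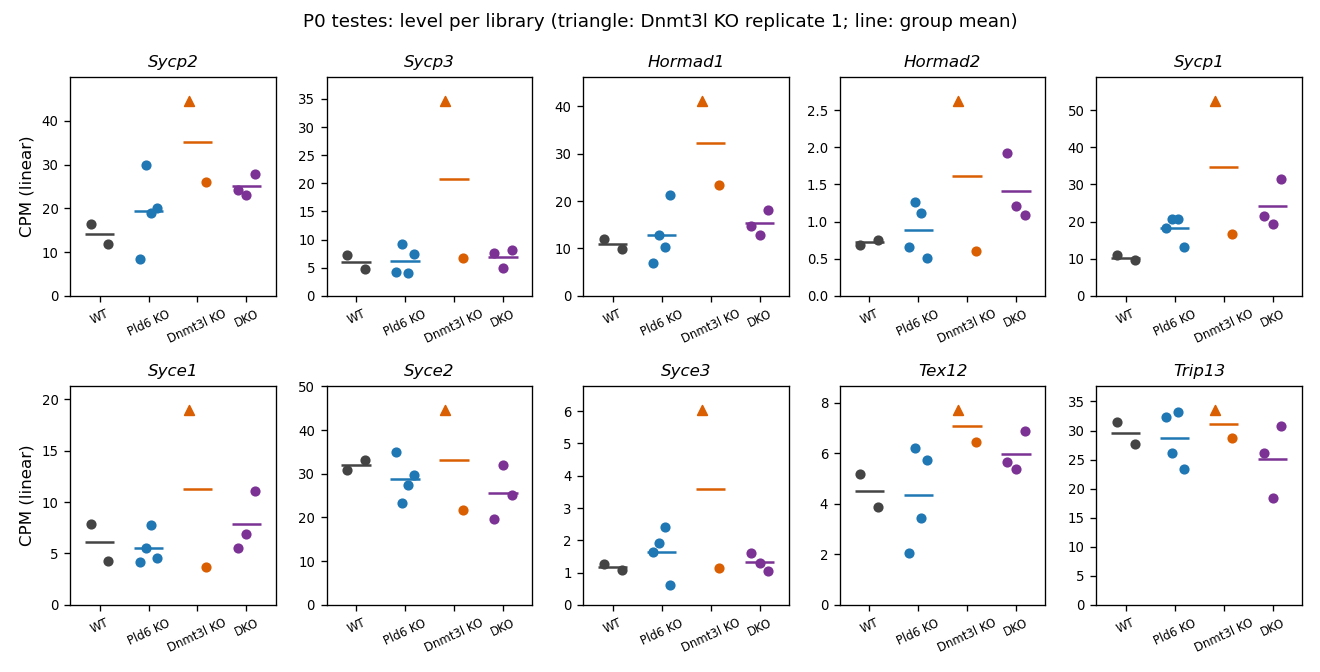
CPM (linear axes from 0) of the 10 genes in each P0 testis library, by genotype; points are libraries, the triangle is Dnmt3l KO replicate 1 and lines are group means. The triangle is the highest point in every panel, at 34.7 CPM for Sycp3 where all other libraries lie between 4.02 and 9.22 CPM.

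Pld6 KO and DKO testes at P0 were compared with the same WT libraries. In Pld6 KO none of the 10 genes was called and 1 of 15901 genes was (0.00629%), and their median log2 fold change was 0.14, against 0.40 in DKO and, without replicate 1, 0.05 in Dnmt3l KO. Sycp1 had 18.3, 20.8, 20.6 and 13.1 CPM in the 4 Pld6 KO libraries against 11 and 9.57 CPM in WT, all 4 above both, where 5.83% of all genes were. Its log2 difference was 0.83 ± 0.377, the only one of the 10 with an unadjusted p under 0.05 (0.0457, edgeR adjusted p = 0.963), where 3.14% of all genes were higher at that level. The other 9 genes overlapped between Pld6 KO and WT. Sycp3, for example, stood at 4.21, 9.22, 4.02 and 7.35 CPM in Pld6 KO and 7.22 and 4.79 CPM in WT, a log2 difference of 0.05 (-1.09 to 1.19). Hormad1 stood at 6.94, 12.9, 10.4 and 21.2 CPM in Pld6 KO, on both sides of WT. Markers of newborn germ cells summed to 129, 463, 397 and 476 CPM in the same 4 libraries, replicate 1 being lowest, and to 346 and 278 CPM in WT. The 10 genes did not follow one order in these 4 libraries. Replicate 1 was the lowest for Sycp2, at 8.34 CPM, and the highest for Syce2, at 34.9 CPM, and their link with the germ cell markers was not tested.

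In DKO testes none of the 10 genes was called and 2 genes were in all (0.0126%). Sycp1 again had the largest value, at 21.6, 19.3 and 31.4 CPM, all above WT, a log2 difference of 1.24 ± 0.395 (unadjusted p = 0.00756, edgeR adjusted p = 0.435), where 5.14% of all genes were higher at an unadjusted p under 0.05. Sycp2 stood at 24.1, 23 and 27.9 CPM in DKO against 16.5 and 11.9 CPM in WT, a difference of 0.82 ± 0.395 (edgeR adjusted p = 0.639). Hormad1, Hormad2 and Tex12 also lay entirely above WT in DKO, making 5 of the 10, where 15.7% of all genes did. Side by side, the Sycp1 difference from WT was 1.76 for Dnmt3l KO, 1.24 for DKO and 0.83 for Pld6 KO, but without Dnmt3l KO replicate 1 the first was 0.70, below the other two. None of the 3 differences passed the test.

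Between DKO and Pld6 KO none of the 10 genes was called or had an unadjusted p under 0.05, and edgeR called 0 genes in all (0%), DESeq2 also calling none of the 10. At an unadjusted p under 0.05, 3.47% of all genes were higher and 2.55% lower. Between DKO and Dnmt3l KO none was called, where 12 genes were (0.0755%), and all 10 had negative values with a median of -0.50. Sycp3 was lower in DKO by 1.57 on the log2 scale, a value of -1.57 ± 0.525 (edgeR adjusted p = 0.164), Syce3 had -1.47 ± 0.618 and Hormad1 -1.08 ± 0.362, the 3 with an unadjusted p under 0.05, where 7.84% of all genes were lower at that level. Without Dnmt3l KO replicate 1 these became 0.06, 0.19 and -0.61, so the first 2 changed sign. In DKO, Sycp3 stood at 7.68, 4.93 and 8.21 CPM and Syce3 at 1.6, 1.29 and 1.05 CPM, near the second Dnmt3l KO library at 6.68 and 1.13 CPM and far from the first.

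The DKO was then compared with the sum of the 2 single-mutant effects. By edgeR 0 of 15901 genes were called as departing from that sum (0%), though 16 and 13 were when Pld6 KO replicate 3 or Dnmt3l KO replicate 2 was left out, and DESeq2 called 71 (0.447%). The 10 genes had a median departure of -0.74 against -0.04 over all genes. Sycp1 at -1.35 ± 0.524, Hormad1 at -1.31 ± 0.518 and Syce3 at -1.95 ± 0.896 had an unadjusted p under 0.05 (edgeR adjusted p from 0.424 to 0.452), where 4.45% of all genes were lower at that level. Leaving out Dnmt3l KO replicate 1 brought them to -0.30, -0.84 and -0.29. Neither edgeR nor DESeq2 on all libraries called any of the 10.

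The effect of each mutation was last compared between the stages, in a fit over the 14 libraries of WT, Pld6 KO and Dnmt3l KO. Stage, tissue and read type (50-bp single reads at L/Z and 100-bp pairs at P0) cannot be told apart in this comparison. None of the 10 genes differed in the Pld6 KO effect, where 2 of 16547 genes did (0.0121%), or in the Dnmt3l KO effect, where 110 did (0.665%), and DESeq2 called none of them in either. None had an unadjusted p under 0.05, where 4.67% of all genes had a higher and 4.85% a lower Pld6 KO effect at L/Z at that level, and 8.82% and 8.35% for Dnmt3l KO. For Dnmt3l KO the difference was -0.47 for Sycp1 (95% confidence interval -1.69 to 0.75), 0.07 for Hormad1 (-1.30 to 1.44) and -0.49 for Sycp3 (-2.24 to 1.26), intervals that are wide enough to hold a 2-fold difference in either direction for Hormad1 and Sycp3. The P0 side of that comparison includes the library that stood apart. In the mixed list of complex proteins and regulators, Ythdc2, an RNA helicase required for meiosis, passed the test with a higher effect at L/Z by 1.57 ± 0.325 on the log2 scale (edgeR adjusted p = 0.0446). Without P0 Dnmt3l KO replicate 1 this was 1.72 and missed the threshold (edgeR adjusted p = 0.155), as it did without most other single libraries.

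Genes whose pattern over the 11 P0 libraries was most like the mean of the 10 genes were Tex101, a germ cell surface protein gene that is also in the list of newborn germ cell markers, with a Pearson's r of 0.94, then Gml at 0.934, Atr, a DNA damage kinase gene, at 0.925, Psma8, which encodes a testis-specific proteasome subunit and is also in the mixed list above, at 0.915 and Clgn, a testis chaperone gene, at 0.897, out of 13632 genes compared. All 5 had their highest CPM in Dnmt3l KO replicate 1, such as 64.2 CPM for Tex101, which was at 11.5 and 9.82 CPM in WT. Over the other 10 libraries the coefficients were 0.734, 0.665, 0.786, 0.666 and 0.746 in the same order. All points come from whole testes, so the share of germ cells in each is common to every gene compared.

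By position in GRCm38, the 10 genes lie on 9 chromosomes and only Sycp1 (chr3:102818499-102936100) and Hormad1 (chr3:95559677-95587863) share one. Sycp2 lies at chr2:178345295-178407776, Sycp3 at chr10:88459587-88473236 and Hormad2 at chr11:4345801-4441198. Of the central element genes, Syce1 lies at chr7:140777229-140787854, Syce2 at chr8:84872111-84887446, Syce3 at chr15:89390174-89410503 and Tex12 at chr9:50557148-50561268, and Trip13 lies at chr13:73912450-73937795. Sycp3, Syce2 and Tex12 overlap the span of a protein-coding gene on the opposite strand, Chpt1, Gcdh and Il18. The kit keeps strand, but whether the counting used it is not given in the sources used here, so reads of these 3 genes may include some of their neighbours.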

How the data were processed

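The authors aligned strand-specific polyA(+) reads to mm10 with TopHat2 and ran Cuffdiff on the libraries of each stage (exact versions and strand setting not given in the sources used here). The deposited tables hold, for each gene and library, estimated counts of fragments and FPKM, which the authors' Cuffdiff run scaled separately for each stage. The counts, of which 97.8% (L/Z) and 97.7% (P0) were whole, were rounded. Genes passing filterByExpr (14662 at L/Z, 15901 at P0) were fitted over all groups of a stage with edgeR 4.0.16 (TMM, quasi-likelihood test), and genes under an FDR of 0.05 with a fold over 2 were called. Stage differences and departures had no fold threshold. The fit was tested on simulated data. Promoter windows came from RefSeq.

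Members and lists were chosen with earlier results of these data known. The 10 genes are named by their list, others as the up to 4 called genes with the largest change in each list, or the 5 genes most correlated at P0 (mean log2 CPM of at least 1, prior count 2). The tables number replicates from 0 and the labels from 1, and the lowest number was taken as replicate 1. DESeq2 1.42.0, limma 3.58.1 on log2(FPKM + 1) and log2(FPKM + 0.1), other filters, a factor for libraries with over 1% Rn45s, a replicate block and leaving out each library were alternatives.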

Additional observations from a re-analysis of the deposited data

Results flagged for a closer look

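Ythdc2, an RNA helicase gene in the mixed list of complex proteins and regulators, had a Dnmt3l KO effect that was higher at L/Z than at P0 by 1.57 on the log2 scale (edgeR, SE 0.325, adjusted p = 0.0446), a test of the difference between the 2 stages itself. It stood out because the same mutation had unequal effects in sorted L/Z spermatocytes and whole P0 testes, which also differ in tissue and read type. Over the alternatives tried, the difference ranged from 1.38 to 1.74, so its direction held. On all libraries the adjusted p ranged from 0.00153 with DESeq2 to 0.063 with edgeR and a replicate block, so its call did not hold. The GC and length offset, limma and the Rn45s factor were not applied to this difference. Within the 4 libraries of Pld6 KO at P0, the only group large enough for a test of single outlying libraries, none of the 10 genes had an outlying library.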

How the results depend on the processing

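Depth did not limit L/Z, where each of the 10 genes had at least 139 fragments in every library, but it did limit Hormad2 and Syce3 at P0, with as few as 5 and 6. The number of the 10 genes called between Dnmt3l KO and WT at L/Z was 4, where 5.47% of all genes were called. It became 1 with limma on log2(FPKM + 1) (3.61% of all genes) and 2 with limma on log2(FPKM + 0.1) (4.53%). With the GC and length offset it became 0 (1.66%). It also moved when single libraries were left out, as given above, with the median log2 fold change of the 10 genes at 0.67 to 1.55. Between Dnmt3l KO and Pld6 KO it was 0 (0.0477% of all genes), and became 5 with DESeq2 (2.44%). It became 1 with no filter on low counts (0.97%) and 1 with only the groups compared (1.3%). It also moved without single libraries, fits that leave 1 library in a group, with the median of the 10 genes at 0.8 to 1.39. At P0 the count for Dnmt3l KO against WT went from 0 to 2 with DESeq2 (0.447% of all genes). Without single libraries this count and that for DKO against Dnmt3l KO also moved. In those fits the median of the 10 genes was 0.05 to 1.73 for Dnmt3l KO against WT and -1.02 to 0.12 for DKO against Dnmt3l KO. Of the alternatives for all such counts, 14 moved them by over 1.5 times. The other 158 say little of stability, since the count was 0 in all but 1 comparison. Single-gene values and the counts called in the other gene lists were tallied together, and 761 of them kept their reading. Among single-gene values, 78 fell below the threshold, 26 passed it and 22 reversed direction. Among the list counts, 26 moved by over 1.5 times. The cause was not tested.

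Reversals were among small or unstable values. In Pld6 KO against WT at L/Z, leaving out single libraries gave -0.089 to 0.71 for Sycp1, -0.18 to 0.59 for Sycp2, -0.55 to 0.75 for Sycp3, -0.28 to 0.95 for Hormad1, -0.40 to 0.26 for Syce1, -0.66 to 0.29 for Tex12 and -0.28 to 0.15 for Trip13 on the log2 scale. The GC and length offset gave -0.28 for Sycp2, -0.019 for Sycp3 and 0.082 for Syce1. In Dnmt3l KO against WT the ranges were -0.027 to 0.67 for Syce2, -0.065 to 0.86 for Syce3 and -0.40 to 0.032 for Trip13, and against Pld6 KO -0.35 to 0.12 for Trip13. At P0 they were -0.071 to 2.32 for Syce3 in Dnmt3l KO against WT, and -2.31 to 0.058 for Sycp3 and -2.22 to 0.19 for Syce3 in DKO against Dnmt3l KO.

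A replicate block gave 5 called genes in Dnmt3l KO against WT at L/Z, with 6.22% of all genes called, and 0 in every other comparison. For each L/Z library, the deviation of log2 CPM from the mean of its own group was taken over all tested genes. These deviations correlated at 0.485 between same-numbered libraries of WT and Pld6 KO, whose replicate 1 libraries were both rich in Rn45s. The value was -0.144 between WT and Dnmt3l KO and -0.135 between Pld6 KO and Dnmt3l KO. With 2 libraries in a group, replicates 1 and 2 give the same value. Since the numbers did not go together in all groups, the main fit did not treat them as pairs. This leaves the likeness of the WT and Pld6 KO deviations out of it. With the numbers of Dnmt3l KO exchanged in that block, an alternative chosen after seeing the data, the called genes were 0 in Pld6 KO against WT, 5 in Dnmt3l KO against WT (8.74% of all genes) and 5 in Dnmt3l KO against Pld6 KO (3.52%).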
